A study of Homo sapiens with 4 samples.

Results

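Type I interferon signalling was examined through 9 genes, *IFNAR1*, *IFNAR2*, *JAK1*, *TYK2*, *STAT2*, *IRF9*, *IRF1*, *IRF3* and *IRF7*, out of 46660 gene identifiers in RNA-seq of glioblastoma cells after *FLI1* knockdown. The genes were chosen by name, as the receptor, kinase, STAT and IRF genes of the pathway, and all 9 had rows in the deposited table. The libraries came from U87MG and U251MG, human glioblastoma lines that are long established in culture. For each line, 1 library was made from control cells, which carried the empty vector pGreen (genotype CTL, called shControl in the titles), and 1 from shFLI1 cells, which carried lentivirus with shRNA against *FLI1*. Both arms were infected in the presence of polybrene, selected with puromycin, collected as mixed stable cells and grown in DMEM with FBS. Thus, each difference within a cell line compares 2 libraries without a replicate check. In these bulk libraries, fewer cells of a type and less RNA per cell cannot be told apart.

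Type I interferons bind a receptor made of *IFNAR1* and *IFNAR2*, whose intracellular parts hold the kinases *TYK2* and *JAK1*. The kinases phosphorylate STAT proteins, and a complex that contains *STAT2* and *IRF9*, known as ISGF3, then binds interferon-stimulated response elements (ISRE) in the promoters of interferon-stimulated genes. *STAT2*, *IRF9*, *IRF1* and *IRF7* are themselves known as interferon-inducible genes, whereas the receptor and kinase genes and *IRF3* are known to be expressed in most cells without a stimulus. This grouping is background knowledge and was not derived from the libraries.

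The targeted gene *FLI1* was counted 52 times in shFLI1 against 107 in control for U87MG, and 111 against 216 for U251MG. This corresponded to 2.34 against 9.34 CPM (counts divided by the TMM-scaled size of their library) and to 3.71 against 12.1 CPM, so the targeted gene was lower in both knockdown libraries. The libraries held between 12229780 and 28891055 counts, and the shFLI1 library was deeper than its control by a factor of 1.74 in U87MG and 1.6 in U251MG. Of the glial markers, *GFAP*, *NES*, *VIM*, *SOX2*, *CD44* and *EGFR* were counted in all 4 libraries, whereas *S100B* had between 1 and 11 counts and *OLIG2* between 0 and 2. *GFAP* was at 634 CPM in U87MG control, 1590 in U87MG shFLI1, 20.4 in U251MG control and 93.8 in U251MG shFLI1. *NES* was at 199, 283, 393 and 637 CPM in the same order, so both were higher in the knockdown libraries. *SOX2* and *CD44* were also higher in both. The glial markers did not all move this way. *EGFR* went from 152 to 124 CPM in U87MG and from 145 to 137 in U251MG. *VIM* went from 3080 to 2990 CPM in U87MG and from 6630 to 7000 in U251MG.

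The promoters of the 3 inducible genes that could be measured are shown here because the comparison turns on which genes of the pathway moved. That of *JAK1* is shown beside them, and no other searched window of a member held the ETS letters described below. The windows of *TYK2* and *IFNAR1* were searched but are not printed. Each window holds the 250 bases before the annotated start in RefSeq (GRCh38.p14), 5′ to 3′ on the strand of the gene. The RefSeq table matched 6 of the 9 genes. Letters of a motif are in capitals. The motifs searched on both strands were GAAANNGAA (ISRE core), TTCNNNGAA (gamma-activated site, GAS, the element bound by STAT dimers) and CCGGAAG (core of ETS factor sites, the family of *FLI1*). The *IRF1* window is chr5:132490774-132491023 on the minus strand, the *IRF9* window chr14:24161015-24161264 on the plus strand, the *STAT2* window chr12:56360108-56360357 on the minus strand and the *JAK1* window chr1:65067747-65067996 on the minus strand, the outermost of its 3 listed starts.
IRF1: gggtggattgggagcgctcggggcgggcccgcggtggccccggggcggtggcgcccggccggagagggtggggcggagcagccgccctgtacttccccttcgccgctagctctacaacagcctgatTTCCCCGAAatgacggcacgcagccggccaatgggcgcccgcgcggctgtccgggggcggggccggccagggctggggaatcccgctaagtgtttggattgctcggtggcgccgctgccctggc
IRF9: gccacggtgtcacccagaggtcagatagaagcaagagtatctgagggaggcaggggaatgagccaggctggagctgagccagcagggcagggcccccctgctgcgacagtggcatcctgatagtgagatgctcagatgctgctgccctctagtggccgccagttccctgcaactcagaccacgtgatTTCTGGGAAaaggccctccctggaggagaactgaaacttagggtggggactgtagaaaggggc
STAT2: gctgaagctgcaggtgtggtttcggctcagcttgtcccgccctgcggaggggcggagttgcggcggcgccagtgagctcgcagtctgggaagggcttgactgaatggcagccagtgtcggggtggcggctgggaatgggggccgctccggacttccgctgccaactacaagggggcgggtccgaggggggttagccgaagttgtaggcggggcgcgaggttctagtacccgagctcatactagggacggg
JAK1: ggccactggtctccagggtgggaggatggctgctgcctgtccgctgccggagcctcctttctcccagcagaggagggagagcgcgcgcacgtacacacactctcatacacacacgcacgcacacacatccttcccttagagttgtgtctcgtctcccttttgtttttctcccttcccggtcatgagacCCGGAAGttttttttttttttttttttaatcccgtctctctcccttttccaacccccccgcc

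The *IRF1* window contained TTCCCCGAA from 124 to 116 bases before the start, and the *IRF9* window contained TTCTGGGAA from 63 to 55 bases before it, both matches to the GAS letters. The *JAK1* window contained CCGGAAG from 62 to 56 bases before the start. In the *STAT2* window, the other 2 windows of *JAK1* and the windows of *TYK2* and *IFNAR1*, none of the 3 motifs was found with these letters. Over 35116 promoter windows of the same length, 6.9% held the ISRE letters, 6.6% the GAS letters and 8.5% the ETS letters. A match describes the letters and not binding, and *FLI1* binding was not measured in these files.

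*STAT2*, the transactivating subunit of ISGF3 (Entrez gene 6773, chromosome 12 of GRCh38, 56341597 to 56360107), was lower in both knockdown libraries. Control cells gave 1685 counts in U87MG and 3787 in U251MG, and shFLI1 cells gave 1275 and 2234. After scaling, the levels were 147 CPM in U87MG control, 57.3 in U87MG shFLI1, 212 in U251MG control and 74.6 in U251MG shFLI1, so that both shFLI1 libraries lay below both control libraries. The log2 fold change of shFLI1 over control was -1.36 for U87MG (from -1.47 to -1.25 by the 95% Clopper-Pearson method, as are the ranges in parentheses after other fold changes) and -1.51 for U251MG (-1.59 to -1.43), which left 39% and 35.1% of the control level. Counted from the lowest fold change, *STAT2* was number 428 of 17355 tested genes in U87MG and number 388 of 18222 in U251MG.

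*IRF9*, the DNA-binding subunit of ISGF3 (Entrez gene 10379, chromosome 14, 24161265 to 24166565), was counted 911 and 1422 times in the control cells of U87MG and U251MG and 909 and 964 times in their shFLI1 cells. Its levels were 79.6 CPM in U87MG control, 40.9 in U87MG shFLI1, 79.8 in U251MG control and 32.2 in U251MG shFLI1. The control cells of the 2 cell lines were thus at nearly the same level, with a log2 ratio of 0 between them (95% interval -0.12 to 0.13). The log2 fold change was -0.96 in U87MG (-1.1 to -0.83), just inside the 2-fold threshold, and -1.31 in U251MG (-1.43 to -1.19). The table lists the gene as paired copies with equal values for its main RNA, and both copies were summed. The sum lay within 0.02 of a whole number of reads in each library, whereas the sum of the first copies alone lay between 0.06 and 0.42 away from one.

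*IRF1*, a transcription factor of interferon and cytokine responses (Entrez gene 3659, chromosome 5, 132481609 to 132490773), was counted 772, 815, 1412 and 679 times in U87MG control, U87MG shFLI1, U251MG control and U251MG shFLI1. The levels were 67.4, 36.6, 79.2 and 22.7 CPM. Here the cell lines differed most. The log2 fold change was -0.88 in U87MG (-1.02 to -0.74), and 54.3% of the control level remained, against -1.8 in U251MG (-1.94 to -1.67) with 28.6% remaining. The U251MG control was above the U87MG control, with a log2 ratio of 0.23 (0.1 to 0.36), whereas the U251MG shFLI1 library was below the U87MG shFLI1 library, with a log2 ratio of -0.69 (-0.84 to -0.54).

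*IRF7*, which drives the amplification of interferon gene expression (Entrez gene 3665, chromosome 11, 612555 to 615950), was counted once in all, with 1 count in U251MG control and 0 in each of the other libraries. A count of 0 allows up to 3 counts, or between 0.1 and 0.262 CPM depending on the library, and no fold is given. The table held 2 RNAs under this identifier and only 1 of its 11 RefSeq transcripts, and whether reads of the others were counted was not tested. The neighbouring gene *PHRF1*, chosen after its values were seen, had between 1324 and 2765 counts.

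**Figure D1:**
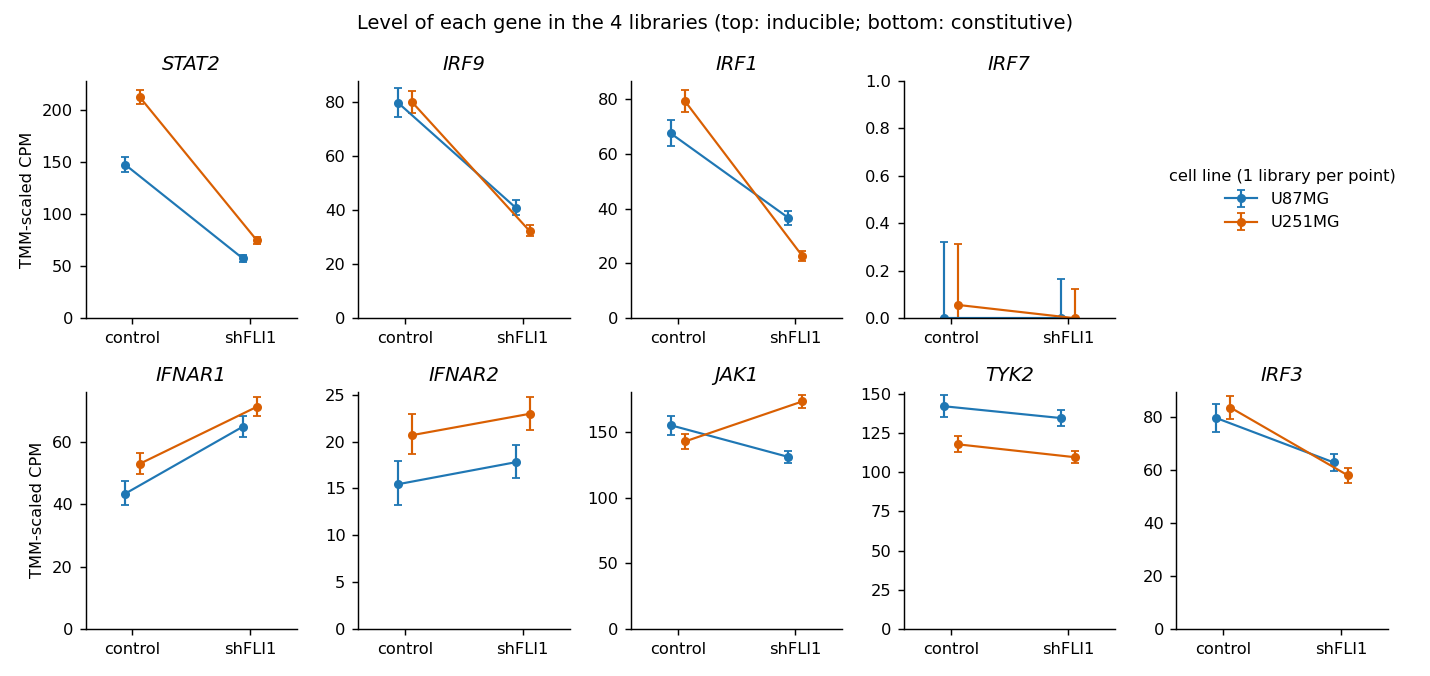
TMM-scaled CPM (y axis, from 0) of the 9 genes in control and shFLI1 cells (x axis), with 1 library per point and 95% exact Poisson intervals of the counts as bars. *STAT2*, *IRF9* and *IRF1* lie lower in both shFLI1 libraries, *IFNAR1* lies higher in both, and the lines of *JAK1* cross.

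The interferon receptor genes did not follow the inducible genes. *IFNAR1*, the subunit that holds *TYK2* (Entrez gene 3454, chromosome 21, 33324395 to 33359864), had 498, 1445, 945 and 2137 counts in U87MG control, U87MG shFLI1, U251MG control and U251MG shFLI1. Its levels were 43.5, 65, 53 and 71.4 CPM, so both shFLI1 libraries were above both controls. The log2 fold changes were 0.58 (0.43 to 0.73) and 0.43 (0.32 to 0.54), below 2-fold in both cell lines. *IFNAR2*, the subunit that holds *JAK1* (Entrez gene 3455, chromosome 21, 33229938 to 33265664), had 177, 396, 369 and 688 counts, or 15.5, 17.8, 20.7 and 23 CPM. The counting intervals of its fold changes, 0.2 (-0.06 to 0.47) and 0.15 (-0.03 to 0.34), both included 0. After scaling to total counts the *IFNAR2* fold changes were 0.36 in U87MG and 0.22 in U251MG, so they depended on the scaling.

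The receptor-bound kinase genes stayed within 1.5-fold of control. *TYK2* (Entrez gene 7297, chromosome 19, 10350533 to 10380572) had 1628, 2994, 2101 and 3282 counts in the same order, or 142, 135, 118 and 110 CPM. Its log2 fold changes were -0.08 (-0.17 to 0.01) and -0.1 (-0.18 to -0.03). *JAK1* (Entrez gene 3716, chromosome 1, 64833229 to 65067746) had 1775, 2912, 2544 and 5186 counts, or 155, 131, 143 and 173 CPM. It was the only tested member with opposite directions in the 2 cell lines, at -0.24 in U87MG (-0.33 to -0.16) and 0.28 in U251MG (0.21 to 0.35). The U87MG value of *JAK1* depended on the scaling, at -0.08 after scaling to total counts (exact binomial P = 0.058) and -0.03 from deposited FPKM as log2(value + 1), where the U251MG values were 0.35 and 0.35. For *TYK2* in U87MG, total counts gave 0.08.

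*IRF3*, which is activated by phosphorylation downstream of nucleic acid sensors (Entrez gene 3661, chromosome 19, 49659572 to 49665857), had 913, 1400, 1492 and 1738 counts, or 79.7, 62.9, 83.7 and 58 CPM. Both shFLI1 libraries were below both controls. The log2 fold changes, -0.34 (-0.46 to -0.22) and -0.53 (-0.63 to -0.43), were the lowest of the constitutive genes and were smaller in size than those of each of the 3 measured inducible genes. After scaling to total counts the *IRF3* fold changes were -0.18 in U87MG and -0.45 in U251MG.

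Within a cell line, genes that reached 10 counts in either library were tested with edgeR's exact binomial test (two-sided), which compares the libraries and not the conditions. A call needed more than a 2-fold difference and a P below 0.05. Of the 9 members, 8 could be tested in each cell line. In U87MG, 1 member was called lower, *STAT2*, and 0 were called higher, against 4.33% of all 17355 tested genes called lower and 7.48% called higher. In U251MG, 3 members were called lower, *STAT2*, *IRF9* and *IRF1*, and 0 higher, against 4.06% and 4.44% of 18222 tested genes. The median log2 fold change of the 3 tested inducible genes was -0.96 in U87MG and -1.51 in U251MG. For the 5 constitutive genes it was -0.08 and 0.15, close to the medians over all tested genes, 0.059 and 0.041. Scaling to total counts moved the medians over all tested genes to 0.218 and 0.113. The genes at the constitutive median, *TYK2* in U87MG and *IFNAR2* in U251MG, moved as well, to 0.08 and 0.22.

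**Figure D2:**
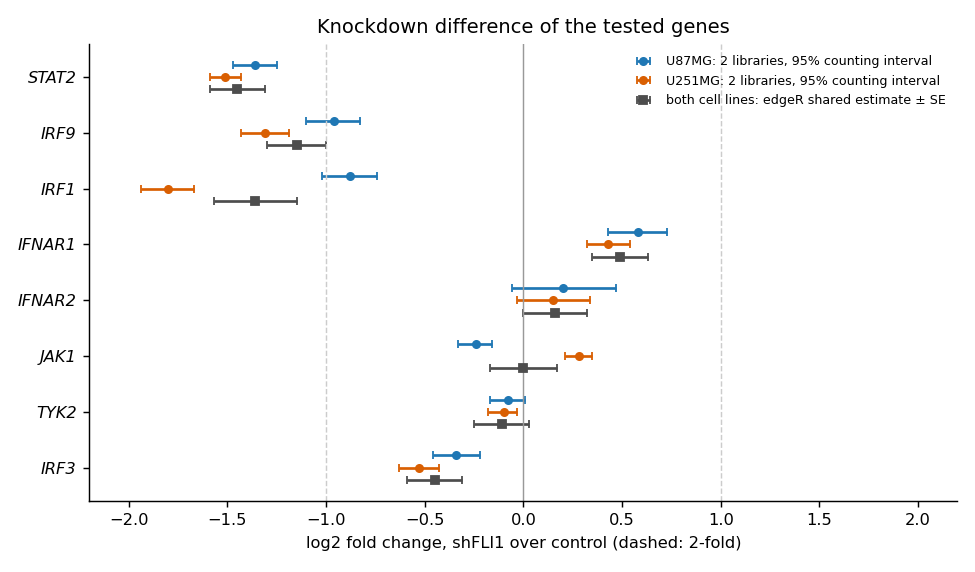
Log2 fold change of shFLI1 over control (x axis) for the 8 tested genes, with 95% counting intervals for each cell line and the shared edgeR estimate ± SE in grey. The shared estimates of *STAT2*, *IRF9* and *IRF1* lie between -1.45 and -1.15, and those of the other 5 genes between -0.45 and 0.49.

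To examine the effect common to both cell lines, all 4 libraries entered edgeR's quasi-likelihood test with a term for the cell line (the block), and 1 residual degree of freedom remained. In this test *STAT2* fell, with a log2 fold change of -1.45 ± 0.14 (SE; edgeR adjusted P = 0.00127), as did *IRF1* at -1.36 ± 0.21 (adjusted P = 0.0135) and *IRF9* at -1.15 ± 0.15 (adjusted P = 0.00577), each lower in 2 of 2 cell lines. These were 3 of 8 tested members called lower and 0 higher, against 2.14% of 16649 genes called lower and 0.919% called higher. *STAT2* was number 44 of all genes by P. Without the cell line as a block, edgeR called 0 members and 0 genes, and 4 members and 725 genes had an unadjusted P below 0.05.

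None of the 5 constitutive genes passed the shared test in edgeR or DESeq2. Over all 16649 genes, edgeR called 2.14% lower and 0.919% higher, so this does not set the constitutive genes apart from genes in general. The nearest were *IFNAR1*, at 0.49 ± 0.14 (edgeR adjusted P = 0.117), and *IRF3*, at -0.45 ± 0.14 (edgeR adjusted P = 0.141), which with the 3 inducible genes made up the 5 members with an unadjusted P below 0.05. *IFNAR2* was at 0.16 ± 0.16 (edgeR adjusted P = 0.691), *TYK2* at -0.11 ± 0.14 (adjusted P = 0.754) and *JAK1* at 0 ± 0.17 (adjusted P = 0.994). The last value averages the opposite directions of the cell lines.

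The cell lines were then compared by the difference of their log2 fold changes, U251MG minus U87MG. With 1 library per arm no test over samples could be made, and the intervals (normal approximation on the log scale) cover counting error alone. The difference was -0.92 for *IRF1* (95% interval -1.12 to -0.73), -0.35 for *IRF9* (-0.52 to -0.17) and -0.15 for *STAT2* (-0.28 to -0.02), so the values of *IRF1* and *IRF9* were further below control in U251MG. For *STAT2* this depended on the processing, with -1.57 in U87MG against -1.49 in U251MG for its most abundant RNA alone and -1.49 against -1.51 after thinning shFLI1 to the control depth. It was 0.52 for *JAK1* (0.41 to 0.63) and -0.19 for *IRF3* (-0.34 to -0.03). For *IFNAR1*, *IFNAR2* and *TYK2* the differences, -0.15 (-0.33 to 0.03), -0.05 (-0.37 to 0.26) and -0.03 (-0.14 to 0.09), had intervals that included 0. For *FLI1* the log2 fold change was -1.95 (-2.51 to -1.51) in the U87MG pair and -1.68 (-2.05 to -1.37) in the U251MG pair.

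**Figure D3:**
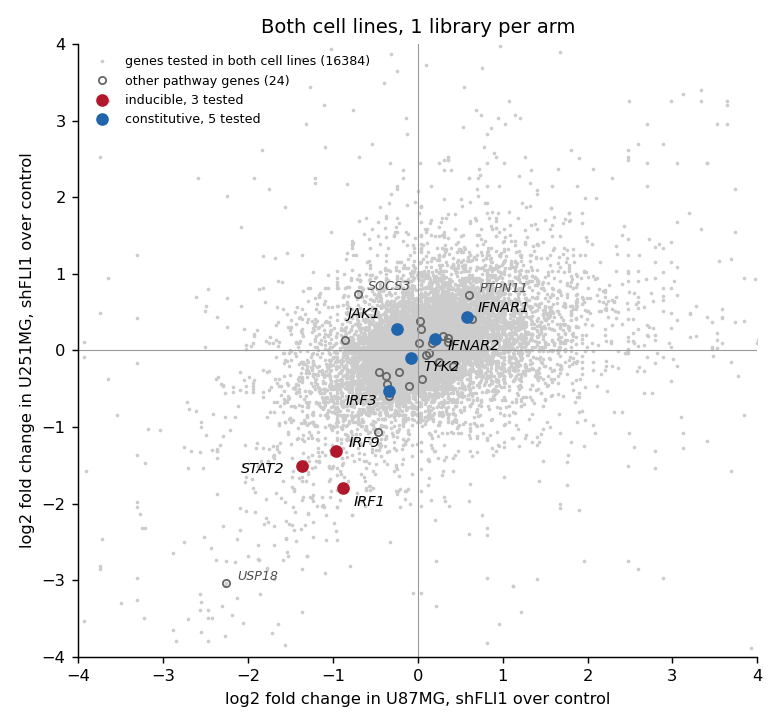
Log2 fold change in U87MG (x axis) against U251MG (y axis) for 16384 genes tested in both cell lines (grey points; 71 lie outside the axes), with members and other pathway genes marked. The 3 inducible genes lie at the lower left with *USP18*. The constitutive genes lie from -0.34 (*IRF3*) to 0.58 (*IFNAR1*) in U87MG and from -0.53 (*IRF3*) to 0.43 (*IFNAR1*) in U251MG. *JAK1* lies to the left of 0 in U87MG and above 0 in U251MG.

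Control cells of U251MG had more *STAT2* than control cells of U87MG, with a log2 ratio of 0.53 (0.45 to 0.61), and more *IFNAR2*, with a ratio of 0.42 (0.16 to 0.69). *TYK2* was lower in U251MG control, at -0.27 (-0.36 to -0.18). *IRF3* differed by less than its counting interval, at 0.07 (-0.05 to 0.19).

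Levels of different genes were compared only per length, by the authors' FPKM summed over the RNAs of a gene and ranked within each library. The intervals scale the counting error of the gene's total count to FPKM. They leave out how counts were divided among RNAs of unlike length, so they can be too narrow. In U251MG control, NM_000629 held 81.21% of *IFNAR1* counts but 7.29 of its 15.22 FPKM. *IRF3* had the highest level in all 4 libraries, from 51.01 to 77.63 FPKM, and *IFNAR2* was number 8 in all 4, from 5.87 to 9.73 FPKM, above only *IRF7*. In control cells *IRF9* was number 2, at 55.14 FPKM in U87MG and 59 in U251MG, but its counting interval overlapped that of *STAT2* (55.2) in U251MG. In shFLI1 cells *IRF9* was number 3 at 31.54 FPKM in U87MG, where it overlapped *JAK1*, and number 4 at 24.89 FPKM in U251MG, where it overlapped *IFNAR1*. *STAT2* was number 4 in control and 5 in shFLI1 cells of U87MG, and number 3 and 6 in those of U251MG, where it also overlapped *IFNAR1*. *IFNAR1* was number 7 in both controls, at 8.82 and 15.22 FPKM, and number 6 and 5 in shFLI1 cells, at 16.12 and 22.54 FPKM. In U87MG shFLI1 its interval overlapped that of *IRF1* (16.05). *IRF1* and *IFNAR2* overlapped in U251MG shFLI1, at 10.34 and 9.73 FPKM.

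**Figure D4:**
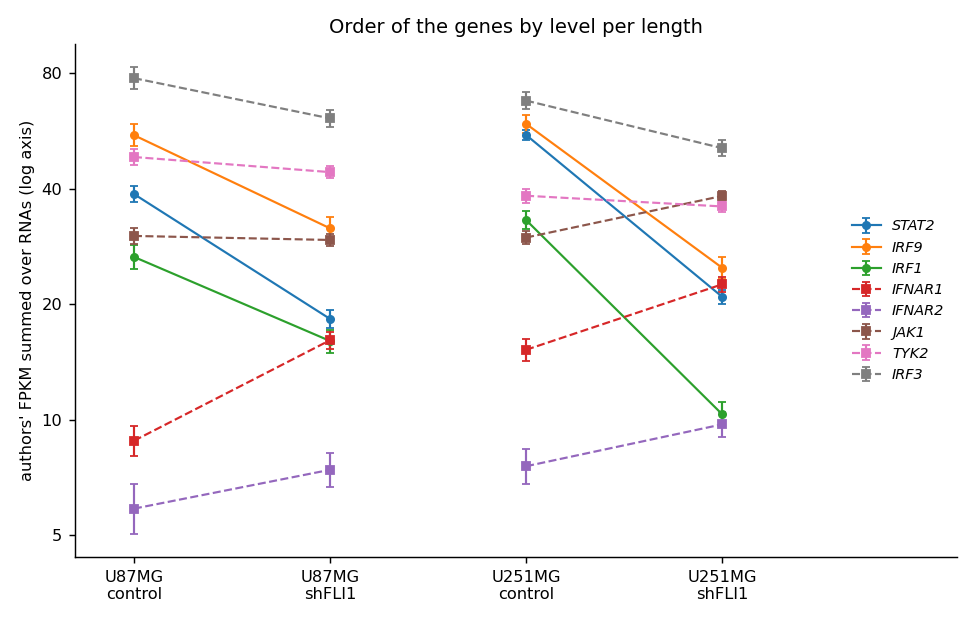
Authors' FPKM summed over RNAs (log y axis) for 8 genes in the 4 libraries (x axis). Bars are counting intervals of each gene's total count scaled to FPKM and leave out the division among RNAs. Solid lines mark inducible and dashed lines constitutive genes. *IRF3* is highest throughout, and *STAT2* and *IRF9* lie above *JAK1* in control cells and below it in U251MG shFLI1 cells.

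The counts of single RNAs, which are the authors' estimates and were not tested, showed whether a gene moved through 1 RNA or several. For *STAT2*, 3 RNAs held at least 10% of the counts in some library, and all 3 were lower in both knockdown libraries. The most abundant, NM_005419, went from 77.3 to 25.4 CPM in U87MG and from 132 to 46.4 in U251MG, NM_198332 went from 30.3 to 14.7 and from 32.9 to 9.59, and XM_017019904 from 14.3 to 8.02 and from 14.3 to 7.45.

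For *IRF1*, NM_002198 went from 23.5 to 12 CPM in U87MG and from 38.9 to 6.52 in U251MG, and XM_011543379 from 28.5 to 16.1 and from 32.3 to 10.3. The share of NM_002198 among *IRF1* counts was 49.11% in U251MG control and 28.74% in U251MG shFLI1, whereas it was 34.9% and 32.86% in U87MG. NM_001354924 of *IRF1* went from 5.48 to 2.69 CPM in U87MG but from 0.2 to 2.94 CPM in U251MG. The U251MG control value rests on 3.57 estimated counts, near the floor of 3, so no change of this RNA is read there.

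The higher level of *IFNAR1* lay in NM_000629, which held 85.62% of the gene's counts in the control and 94.07% in the shFLI1 library of U87MG, and 81.21% and 93.98% in U251MG. NM_001384503 of *IFNAR1* went from 10.02% (95% exact binomial interval 7.54 to 13.02) to 0% (0 to 0.25) in U87MG and from 8.64% to 1.59% in U251MG. These intervals leave out how reads were divided among RNAs, so no change of NM_001384503 alone is read. The opposite directions of *JAK1* lay in its main RNA, NM_002227, at 135 and 102 CPM in U87MG and 126 and 163 in U251MG. For *IRF3*, NM_001571 went from 27 to 21.3 CPM in U87MG and from 30.6 to 17.3 in U251MG. XM_006723200 went from 6.51 to 5.86 and from 9.62 to 6.32. In contrast, XM_017026766 went from 14.6 to 14.8 and from 18.1 to 13.2. XM_017026767 went from 3.77 to 4.39 and from 7.67 to 7.56. Thus, the RNAs of *IRF3* did not all move the same way. The split of *IFNAR2* between RNAs differed widely between libraries. NM_207585 held 43.32% of *IFNAR2* counts in U87MG control, 0% in U87MG shFLI1 and U251MG control and 7.06% in U251MG shFLI1, so no change of a single *IFNAR2* RNA is read from these libraries.

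**Figure D5:**
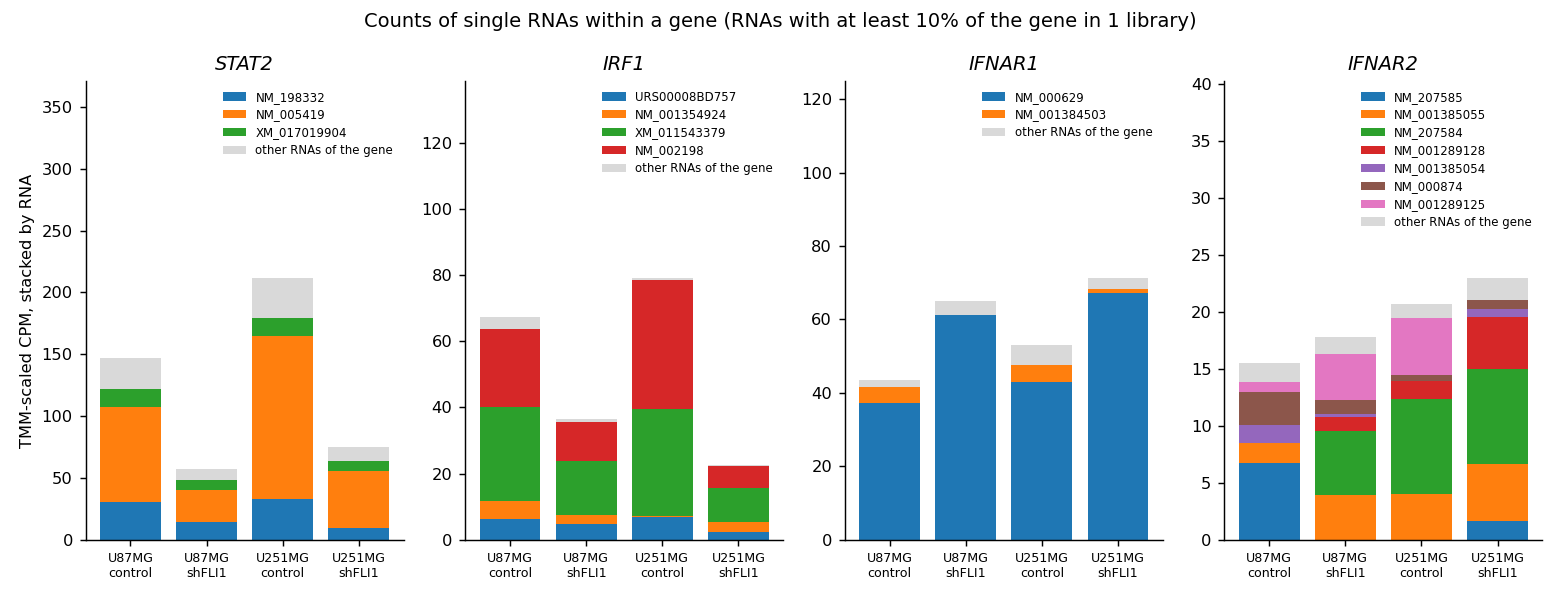
TMM-scaled CPM (y axis) in the 4 libraries (x axis), stacked by RNA for *STAT2*, *IRF1*, *IFNAR1* and *IFNAR2*; grey is the sum of RNAs below 10% in every library. Each *STAT2* segment is shorter in shFLI1 cells, and the colours of *IFNAR2* differ between libraries while its total stays between 15.5 and 23 CPM.

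The other genes of the pathway were taken from a list of 51 interferon ligands, receptors, JAK, STAT and IRF genes, negative regulators and IRF kinases. Of these, 24 were tested. In U87MG 1 was called lower, in U251MG 2 were called lower, and 0 were called higher in either cell line, beside 4.33% and 4.06% of all tested genes called lower and 7.48% and 4.44% called higher. The median log2 fold change of the 24 was 0.03 in U87MG and -0.04 in U251MG. In the shared test 1 of 24 was called lower and 0 higher by edgeR, beside 2.14% and 0.919% of all genes.

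The gene called in both cell lines was *USP18*, an interferon-inducible protease that removes ISG15 from proteins and restrains signalling at *IFNAR2*. *USP18* was counted 923, 372, 2029 and 412 times in U87MG control, U87MG shFLI1, U251MG control and U251MG shFLI1, or at 80.6, 16.7, 114 and 13.8 CPM. It fell in the shared test, with a log2 fold change of -2.68 ± 0.2 (edgeR adjusted P = 0.000412), beside -1.45 for *STAT2*; the difference between the genes was not tested. *SOCS1*, a feedback inhibitor of JAK kinases, was called lower in U251MG, at 2.64 CPM in control (47 counts) and 1.2 CPM in shFLI1 (36 counts), a log2 fold change of -1.07 (-1.8 to -0.48). In U87MG *SOCS1* had 14 and 19 counts and a log2 fold change of -0.47 (-1.59 to 0.59). *PTPN11*, a phosphatase gene, had a shared log2 fold change of 0.64 ± 0.15 that missed the threshold in edgeR (adjusted P = 0.0547) and passed it in DESeq2 (adjusted P = 0.0313).

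The interferon ligands themselves were nearly uncounted. Of 21 listed ligand genes, 5 had rows and 0 reached 10 counts in a library. *IFNB1*, the interferon beta gene, was counted 0, 2, 3 and 1 times in the same order of libraries. No difference in ligand RNA is read from such counts. The 4 other interferon receptor genes were at a median log2 fold change of -0.14 for U87MG and -0.41 for U251MG, with 0 called.

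The genes whose pattern over the 4 libraries was most like that of an inducible member were found by Euclidean distance between log2 CPM values centred on their mean, among 13360 genes with at least 100 counts in all; 4 libraries are few points, and the distance is a description. For *STAT2* the 5 nearest were *TRIM5* (distance 0.128), *PHF11* (0.142), *CYP2J2* (0.163), *FST* (0.185) and *GDF15* (0.221). The *IRF9* pattern was nearest to *APOL2* (0.15), *EIF2AK2* (0.154), *DUSP10* (0.161), *PSME2* (0.199) and *PMAIP1* (0.203). *TRIM5*, a restriction factor of retroviruses, was at log2 fold changes of -1.2 and -1.44, for U87MG first and U251MG next. *EIF2AK2*, the kinase PKR that senses double-stranded RNA, was at -0.94 and -1.36. The other genes nearest to *STAT2* were at -1.35 and -1.34 (*PHF11*), -1.17 and -1.38 (*CYP2J2*), -1.33 and -1.45 (*FST*) and -1.4 and -1.66 (*GDF15*). Those nearest to *IRF9* were at -0.89 and -1.4 (*APOL2*), -0.89 and -1.41 (*DUSP10*), -0.85 and -1.33 (*PSME2*) and -0.86 and -1.09 (*PMAIP1*). Whether these genes share a function was not tested. For *IRF1* they were *PARP9* (0.171), *KYNU* (0.172), *FAS* (0.185), *NPIPA1* (0.211) and *MTUS1* (0.274). *NPIPA1* belongs to a family of near-identical copies between which reads can be split, so its value is uncertain. *IRF7* had too few counts for such a comparison.

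Markers of other cell types were low but not constant. The summed level of 7 leukocyte markers was 5.07 CPM in U87MG control, 1.3 in U87MG shFLI1, 9.93 in U251MG control and 1.74 in U251MG shFLI1. This sum was lower in both knockdown libraries, as were the inducible genes, but most of the control sums was *CD68*, at 47, 12, 163 and 14 counts. *CD14* did not follow it in U251MG, at 0.873 and 0.764 CPM in U87MG and 0.673 and 1.04 in U251MG. *PTPRC* had between 0 and 5 counts and *CD3E* 0 in all libraries. The 4 endothelial markers summed to 16, 8.05, 7.68 and 14.7 CPM. Between 2 and 5 of the 7 leukocyte markers were at 0 in a library, and the part of the marker levels, glial markers included, in the results was not tested.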

How the data were processed

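The paper describes poly(A) mRNA as the input of the 4 libraries. The deposited table also lists 31346 circular RNAs, which were left out, and how the RNA was selected was not checked. Paired reads were aligned by the authors to GRCh38 with HISAT2 and quantified with StringTie. The table deposited by the authors gives estimated counts, which are not normalized and need not be whole, and FPKM, which the authors scaled per kilobase and to the mapped reads of the library. The tool behind the counts is not given in the sources used here. Another 10 value columns were not used.

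Counts of 185042 linear RNAs were summed over 46660 gene identifiers and rounded. Totals ranged from 12229780 to 28891055. Scaling was by TMM (edgeR 4.0.16, R 4.3.3), with a prior count of 2 for fold changes. Each cell line was tested with edgeR's two-sided exact binomial test on 2 libraries. The shared effect comes from edgeR's quasi-likelihood fit after filterByExpr, with Benjamini-Hochberg adjustment, where the 2 cell lines serve as replicates. DESeq2 1.42.0 was an alternative. Scripts were tested on simulated data. PCR reads are not independent molecules, and intervals and floors cover counting error only. Without a strand setting stated, overlapping genes cannot be told apart.

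The members and lists were chosen with earlier results of these data known. All 9 members, *FLI1*, each pathway gene with a call and the 5 genes nearest in pattern to an inducible member were to be named; *PTPN11*, *IFNB1*, *PHRF1* and the markers are added. A pathway gene is not reported here. Gene positions and promoters are from RefSeq.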

Additional observations from a re-analysis of the deposited data

Results flagged for a closer look

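*JAK1* had fold changes of opposite sign in the 2 cell lines. Its log2 fold change was -0.24 in U87MG and 0.28 in U251MG, a difference of 0.52 (U251MG minus U87MG). The U87MG value was -0.08 after scaling to total counts (exact binomial P = 0.058) and -0.03 from deposited FPKM as log2(value + 1), while the U251MG value was 0.35 under both. Each value compares a pair of single libraries, and the difference was not tested.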

How the results depend on the processing

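The alternatives covered scaling, filters, prior count, thresholds, the authors' FPKM, thinning, single RNAs, the test and the block, and 2 were chosen after seeing the data (first copies of RNAs alone, and filtering after TMM). The members called lower in U87MG were 3 instead of 1 with a 1.5-fold threshold and 2 after thinning shFLI1 to the control depth. The share of all tested genes called under these settings was not computed, so nothing is read from the higher counts. Members lower in the shared test were 3 in each blocked fit and 0 with no cell line block, where the adjusted P by edgeR was 0.663 for *STAT2*, 0.719 for *IRF9* and 0.86 for *IRF1*. With the block, the highest adjusted P over all alternatives was 0.00582, 0.0248 and 0.0428 in the same order. The lowest, by edgeR for genes with a count of 1 or more in some library, was 4.86e-16, 2.14e-09 and 1.07e-12. The size of P thus depended strongly on which genes entered the fit. Among the constitutive genes, the lowest adjusted P over the alternatives was 0.0695 for *IFNAR1* and 0.126 for *IRF3*, both by edgeR. *TYK2* was reversed after scaling to total counts, at 0.08 in U87MG and 0.03 in the shared test, and *JAK1* was at -0.01 in the shared test with DESeq2 and with its size factors. *IFNAR2* in U87MG was at 5.89 with its most abundant RNA alone. This RNA, NM_207584, was estimated at 0 before knockdown in that line, against 125.53 after it. The size of 5.89 therefore depends on the prior count, and no change of *IFNAR2* is read from it. The genes lower and higher in the shared test were 356 and 153, against 736 and 567 for genes with a count of 1 or more in some library, 199 and 166 with total counts, 324 and 180 for genes with 100 or more in each library, 312 and 93 with DESeq2, 275 and 107 with first copies alone and 269 and 110 with filtering after TMM. CPM per kilobase was not run, since no RNA lengths were used. Leaving out 1 library leaves an arm of a cell line empty, so no such value is given. The blocked fit pairs control and shFLI1 by cell line. *IRF7* and the ligands had too few counts for a test, and 1 library per arm limits each value within a cell line.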
